A study of Saccharomyces cerevisiae with 8 samples.

Results

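The RNA levels of 60 ribosome biogenesis genes are described here in 4 Saccharomyces cerevisiae strains with 2 arrays each. The genes were listed by name, and a probe set was taken as a measurement of a listed gene where the platform annotation gave it that gene and no other. Of the 60 genes, 59 had such a probe set (78 probe sets in all, among 6504 that named 1 gene, for 5656 genes); NOP10 had none and was not analysed here. All 59 passed the filter on low signals, and none reached the floor on any array. Beside wild type there were 3 mutants: not1-2, an allele of the gene for Not1, spt3, mutated in SPT3, and not1-2 spt3 with both mutations. All strains had 24 h of growth at 30°C on a rich liquid medium with glucose, were shifted to 37.5°C, the restrictive temperature, when the OD600 was 0.2, and gave RNA at an OD600 of 0.8; the wild type had the same shift, so no array shows unshifted cells. Per its title, the study concerns a role of SPT3 in the deregulated transcription of a Ccr4-Not mutant, and the comparison of the double mutant with not1-2 addresses it. The sources used here give neither the kind of spt3 mutation nor the full genotypes.

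Yeast builds its ribosomes in the nucleolus, where box C/D and box H/ACA ribonucleoproteins modify the precursor ribosomal RNA and large assemblies of proteins and RNA helicases fold it, cut it and join it to ribosomal proteins. The genes for these assembly factors form a regulon: in growing cells they are transcribed together, and they are turned down together under starvation or stress, ahead of or along with the ribosomal protein genes. The Ccr4-Not complex, built on the large protein Not1 (gene CDC39), acts in transcription and in mRNA decay. Spt3 belongs to the SAGA coactivator, where it contacts the TATA-binding protein.

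The strain labels were checked on marker genes. The SPT3 probe set read 25.3 and 15.5 on the wild-type arrays and 29.9 and 22.8 on the not1-2 arrays, while the 4 arrays labelled spt3 were all at the floor of 1.72. TRP1, a common selection marker, was at that floor on the wild-type and not1-2 arrays and between 36 and 56.2 on the others. SPT3 and TRP1 thus differed between the same strains, and a difference with the one and with the other cannot be told apart. MFA2, which encodes a-factor, gave 4972 and 1448 in wild type and 7.44 to 18.0 in the 3 mutant strains, whereas MF(ALPHA)1, for alpha-factor, was low in wild type (14.9 and 17.1) and read 534 to 1617 elsewhere. A difference between wild type and a mutant and a difference between strains of unlike mating-type expression therefore cannot be told apart, which does not apply to comparisons among the mutants. CDC39 signals of wild type (18.0 and 23.3) and not1-2 (14.2 and 27.3) overlapped. Those of spt3 (55.3 and 34.7) and the double mutant (25.8 and 58.2) lay over both wild-type arrays. None of these markers checks the not1-2 mutation itself. The ACT1 control, whose 3′ over 5′ signal rises when RNA is degraded or copied incompletely, had a ratio between 5.83 and 199 on the replicate 1 arrays, highest in wild type, and between 1.79 and 2.10 on the replicate 2 arrays. Its part in the results was tested only as a covariate beside the replicate number.

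Replicates of the biogenesis genes differed most in wild type, where 14 of the 59 were over 1 log2 unit apart between the replicates, from -1.79 for SSF1 to 2.08 for IMP3 (replicate 2 minus replicate 1). In not1-2 this held for 5 genes, in the double mutant for 4 and in spt3 for 2. Over all features the shares were 37.5% in wild type, 23.9% in not1-2, 20.8% in the double mutant and 14.4% in spt3. Each was above the share among the members. Of the 7043 features, 5355 named 1 gene, the rest being probe sets that named none or several. The features were not matched to the members by signal. Same-numbered arrays deviated together in all 6 pairs of strains, though only weakly for spt3 with the double mutant (r = 0.188 over all features). Many differences, though not all, are therefore given with their values in the replicate 1 pair and the replicate 2 pair. A gene was called at an adjusted p below 0.05, from limma with Benjamini-Hochberg adjustment over all 7043 features tested. A pass in the fit without the replicate number or in the fit with it as a block was enough. The fit without it was planned as the main fit, with the block as the alternative. Counting a pass in either makes a call easier to reach than in the main fit alone.

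In not1-2, most biogenesis genes were measured lower than in wild type. Of the 59, 46 had a lower strain mean (78.0%, against 55.6% of all features tested). In both replicate pairs 33 were lower (55.9%, against 38.0% of all features) and 5 higher (8.47%, against 28.6%). Their median difference was -0.31 on the log2 scale (-0.54 in the replicate 1 pair and -0.17 in the replicate 2 pair), beside -0.08 for all features. As deposited, without centring, the medians were -0.18 for the members and 0.06 for all features, so the members lay lower than the array as a whole on both scales. In these bulk samples, less RNA of a kind in each cell and fewer cells making it cannot be told apart. Only DBP2 and GAR1 were called, both lower and both only with the block. In that fit 140 of 7043 features were called, 1.99%, and the count of 2 of 59 (3.39%) is read against that share. Without the block 0 members and 3 features (0.0426%) were called, and 3 members had an unadjusted p under 0.05 (5.08%, against 7.67% of all features), against 9 with the block (15.3%, against 17.9%). The shares with an unadjusted p under 0.05 were no higher among the members than over the array in either limma fit. The signals of the 2 not1-2 arrays both lay under the 2 wild-type arrays for 18 members, where 17.3% of all features did so, and both lay over them for 2 members, where 14.8% did.

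**Figure D1:**
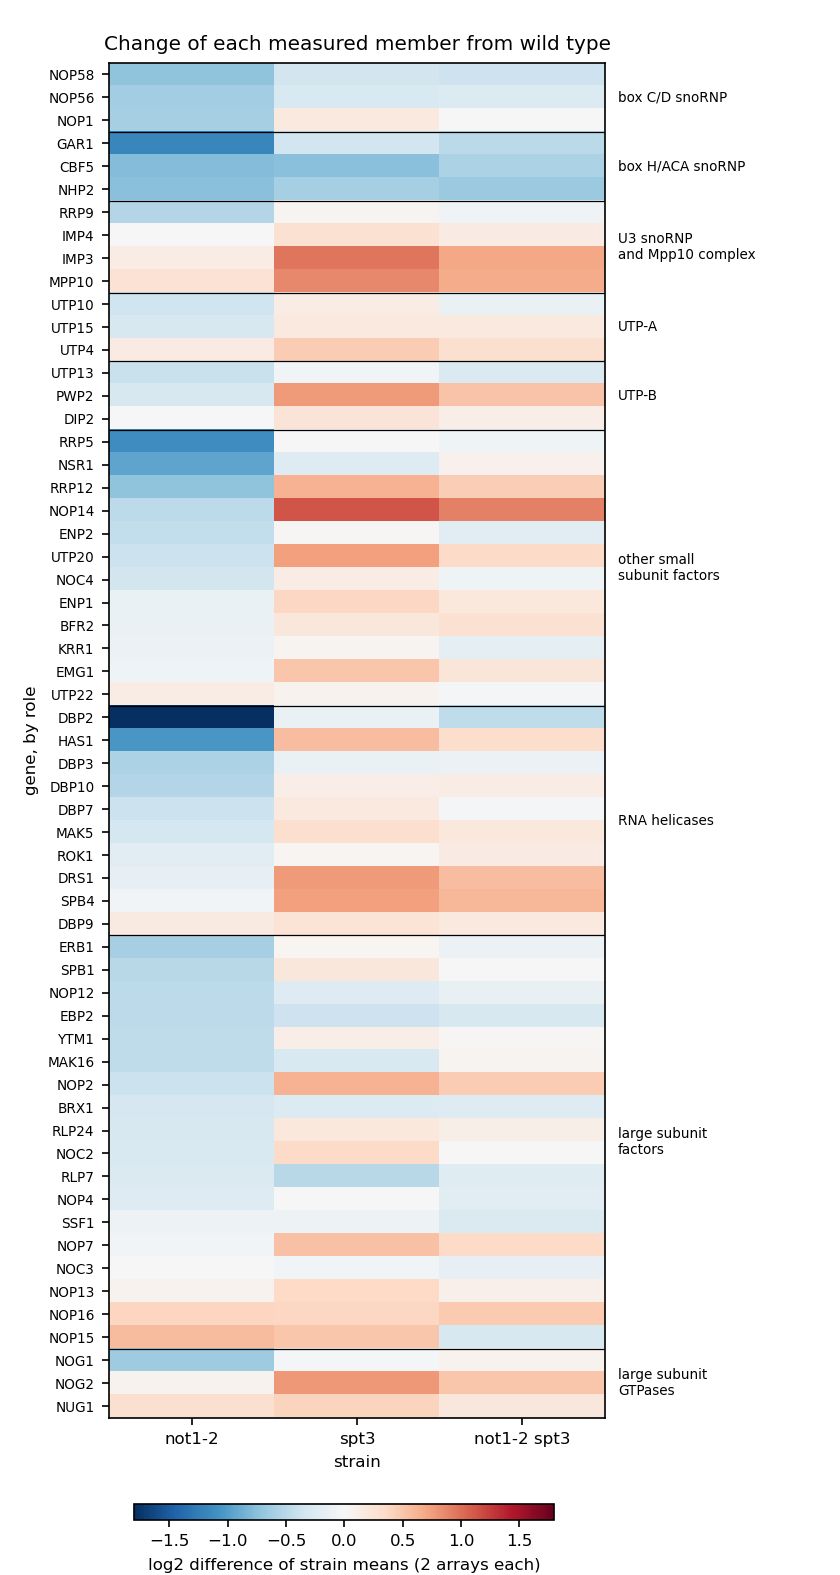
Difference of each of the 59 measured genes from wild type on the log2 scale (colour) in not1-2, spt3 and the not1-2 spt3 double mutant (columns), ordered by role and, within a role, by the difference in not1-2. The not1-2 column is mostly blue, down to -1.79 for DBP2, while the spt3 column holds more red cells, up to 1.13 for NOP14.

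DBP2, a DEAD-box RNA helicase of ribosome assembly and of nuclear mRNA processing, differed most. Its signal was 439 and 479 in wild type, 108 and 162 in not1-2, 414 and 428 in spt3, and 369.7 and 303 in the double mutant. The not1-2 arrays were far lower than all 6 others, and the spt3 arrays lay just under the wild-type ones. The signal was 3.47-fold lower in not1-2 than in wild type (log2 difference -1.79, SE 0.30, adjusted p = 0.0263 by limma with the block and 0.224 without it), by -2.02 and -1.56 in the replicate pairs. A second DBP2 probe set, more variable between replicates, read 20.7 and 274 in wild type, 13.7 and 84.3 in not1-2, 97.7 and 172 in spt3, and 83.0 and 151 in the double mutant, a difference of -1.15 between not1-2 and wild type. On it, too, not1-2 was the lowest strain.

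The box H/ACA proteins form the enzymes that convert uridine to pseudouridine in ribosomal RNA. The RNAs of their measured genes, GAR1, CBF5 and NHP2, had lower means than wild type in all 3 mutants. GAR1, a core protein of these particles, was measured at 877 and 773 in wild type, 369.9 and 358 in not1-2, 669 and 628 in spt3, and 695 and 499 in the double mutant. Both not1-2 arrays lay under the 6 others, and no mutant array reached the wild-type values. The GAR1 signal was 2.26-fold lower in not1-2 than in wild type (log2 difference -1.18, SE 0.24, adjusted p = 0.0482 by limma with the block and 0.459 without it). With the ACT1 ratio added to the block its adjusted p was 0.0647. CBF5, the pseudouridine synthase itself, read 1078 and 599 in wild type, 673 and 325 in not1-2, 539 and 425 in spt3, and 714 and 414 in the double mutant. Its replicates differed by as much as the strains, and the differences from wild type were -0.78, -0.75 and -0.56 for not1-2, spt3 and the double mutant. NHP2, the RNA-binding core protein, read 1541 and 928 in wild type, 757 and 672 in not1-2, 744 and 836 in spt3, and 866 and 648 in the double mutant. Every NHP2 mutant array was under the lower wild-type array, and the differences were -0.75, -0.60 and -0.67. In spt3 the replicate pairs gave -1.05 and -0.15 for NHP2. Adding the ACT1 ratio gave -0.58, -0.22 and -0.38 for NHP2, and -0.68, -0.53 and -0.39 for CBF5. Neither CBF5 nor NHP2 was called in any comparison.

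The box C/D proteins carry out ribose methylation. The RNAs of their genes NOP1, NOP56 and NOP58 were lower in not1-2 than in wild type in both replicate pairs, with a median of -0.63, and none was called. NOP58, a core protein, read 4312 and 1595 in wild type, 2332 and 1090.0 in not1-2, 2546 and 1700.2 in spt3, and 3054 and 1351 in the double mutant. In every strain replicate 1 was the higher, and the strains overlapped. The difference of NOP58 in not1-2 was -0.72, and its 3 other probe sets gave -0.57 to -0.95. NOP1, the methyltransferase known as fibrillarin in animals, read 284 and 511 in wild type, 184 and 346 in not1-2, 367 and 500.3 in spt3, and 327 and 445 in the double mutant. Here replicate 2 was the higher throughout, and within each pair of arrays not1-2 was the lowest strain, by -0.62 and -0.56 from wild type. NOP56, the third core protein, was lower in not1-2 by -0.60 and -0.66 in the 2 pairs, with signals of 176 and 134 against 267 and 211.

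Of 12 small subunit factors outside these particles, the U3 and Mpp10 group and the UTP-A and UTP-B complexes, 11 were lower in not1-2 than in wild type. Their median was -0.36 (-0.56 and -0.06 in the replicate pairs). RRP5, which acts in processing for both subunits, read 280.4 and 253 in wild type, 117 and 129 in not1-2, 261 and 268 in spt3, and 297 and 215 in the double mutant. The not1-2 arrays stood apart from all others, which overlapped among themselves. The difference from wild type was -1.12 (SE 0.29, adjusted p = 0.102 by limma with the block and 0.455 without it), so RRP5 was not called. NSR1, the yeast relative of nucleolin, read 541 and 462 in wild type, 241 and 279 in not1-2, 545 and 333 in spt3, and 690.2 and 401 in the double mutant. The not1-2 arrays were the lowest pair again, by -1.17 and -0.73 from wild type in the replicate pairs. RRP12, which acts in export of both subunits, read 143.5 and 238 in wild type, 87.2 and 143.1 in not1-2, 283 and 287 in spt3, and 289 and 218 in the double mutant. For this gene the spt3 arrays lay over the wild-type arrays and the not1-2 arrays under them, though 143.1 in not1-2 and 143.5 in wild type were nearly equal. The RRP12 difference in not1-2 was -0.73 (adjusted p = 0.324 by limma with the block). In spt3 it was 0.62, or 0.13 with the ACT1 ratio added to the block.

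RRP9, MPP10, IMP3 and IMP4 encode parts of the large U3 particle that makes the first cuts. In not1-2, 1 of the 4 had a lower mean than wild type, and the median of 0.07 was 0.22 in the replicate 1 pair and -0.19 in the replicate 2 pair. With the ACT1 ratio added to the block all 4 were lower, with a median of -0.28, so this group has no settled direction. IMP3, a partner of Mpp10 in the U3 particle, read 16.4 and 69.3 in wild type, 20.4 and 67.1 in not1-2, 65.2 and 66.4 in spt3, and 34.5 and 86.7 in the double mutant. The low values were the replicate 1 arrays of wild type and not1-2, and all replicate 2 arrays lay between 66.4 and 86.7. MPP10 read 9.28 and 36.8 in wild type, 15.9 and 30.6 in not1-2, 28.7 and 39.7 in spt3, and 22.4 and 38.5 in the double mutant, again with replicate 1 of wild type lowest. IMP4, another Mpp10 partner, had differences from wild type of 0.01, 0.27 and 0.14 in not1-2, spt3 and the double mutant. Adding that ratio to the block gave -0.29, -0.40 and -0.39, and in spt3 the replicate pairs gave 0.97 and -0.42. Of the UTP-A proteins, which bind the precursor first, UTP10 read 411 and 270.1 in wild type against 265 and 254 in not1-2. The difference was -0.36 (-0.64 and -0.09 in the replicate pairs), and the 3 genes had a median of -0.28 (-0.34 and -0.09). In the UTP-B group the median was -0.29 (-0.61 and -0.06). UTP13 of that group read 109.9 and 122 in wild type against 69.2 and 111 in not1-2. Its difference was -0.40 (-0.67 and -0.14).

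Of the RNA helicases, 9 of 10 were lower in not1-2, with a median of -0.35 (-0.37 and -0.21 in the replicate pairs). HAS1, a helicase needed for both subunits, read 29.3 and 113 in wild type, 24.0 and 32.6 in not1-2, 75.2 and 94.6 in spt3, and 61.8 and 83.0 in the double mutant. Wild-type replicate 1 was close to the not1-2 arrays and replicate 2 was the highest of all. Its difference in not1-2 was accordingly -0.29 in the replicate 1 pair and -1.79 in the replicate 2 pair, and the mean of -1.04 (adjusted p = 0.238 by limma with the block) did not exceed that spread.

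In the large subunit, 14 of 18 assembly factors were lower in not1-2, with a median of -0.28 (-0.50 and -0.11 in the replicate pairs). ERB1, whose product works with those of YTM1 and NOP7 in processing of the large subunit RNA, read 594 and 414 in wild type, 357 and 300.1 in not1-2, 625 and 410.2 in spt3, and 542 and 396 in the double mutant. Only the not1-2 arrays lay under all the others, by -0.60 on average from wild type. NOP15, NOP16 and NUG1 had the highest estimates of the 59 in not1-2. NOP15, which acts in early large subunit processing, read 84.2 and 120.3 in wild type, 108 and 207 in not1-2, 145 and 139 in spt3, and 92.3 and 73.6 in the double mutant. Its signal was higher in not1-2 than in wild type in both pairs, by 0.36 and 0.79, with overlapping arrays and an adjusted p of 0.45 by limma with the block. NOP16, another large subunit factor, read 99.9 and 106 in wild type against 123 and 148 in not1-2, a difference of 0.39. NUG1, a GTPase of nuclear large subunit maturation, read 172 and 155 against 196 and 201, a difference of 0.28. Of the other GTPases, NOG1 was lower in not1-2 by -0.65 and NOG2 differed by 0.07, or by -0.13 with the ACT1 ratio.

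**Figure D2:**
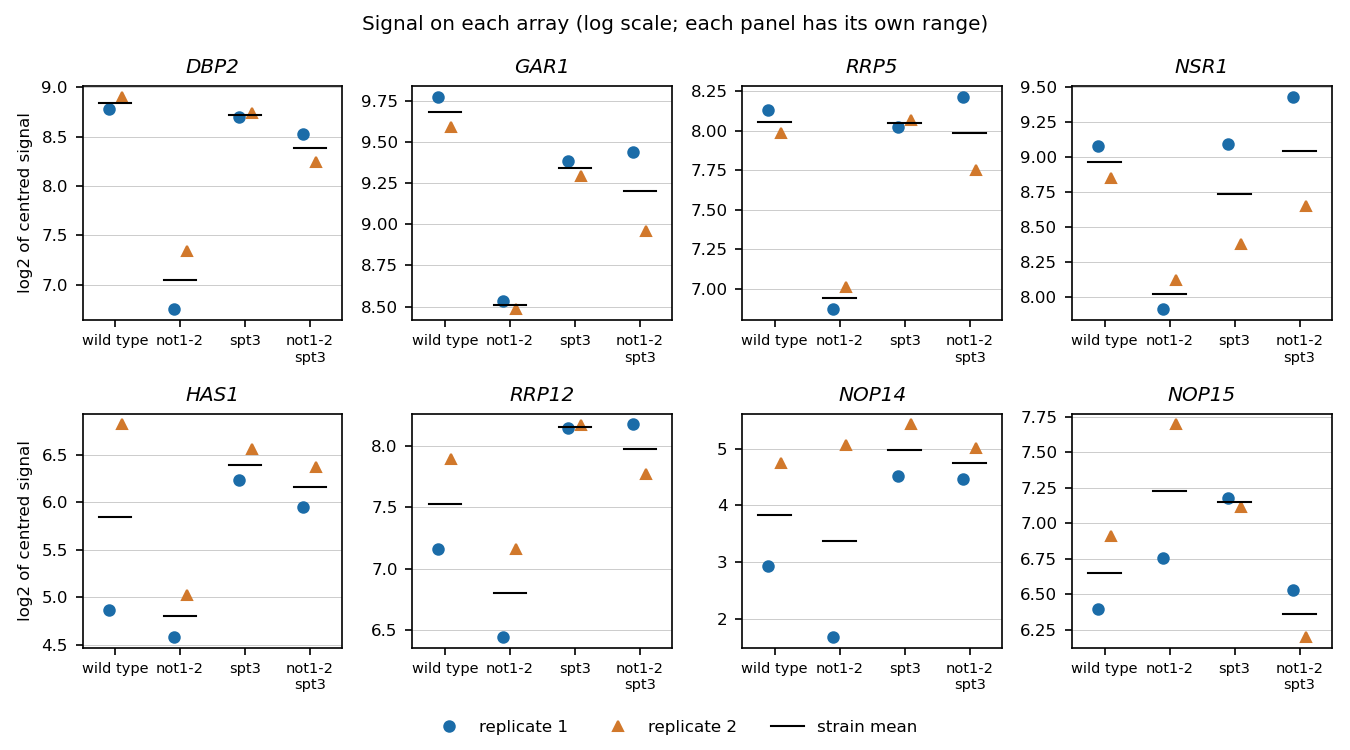
Signal of 8 genes on each of the 8 arrays (y axis, log2 of the centred signal, with a separate range per panel), by strain, with replicate 1 as circles, replicate 2 as triangles and the strain mean as a bar. DBP2, GAR1, RRP5 and NSR1 are lowest on both not1-2 arrays, NOP14 and HAS1 differ widely between wild-type replicates, and NOP15 has its lowest mean in the double mutant.

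Across the 4 strains, not1-2 had the lowest mean for 43 of the 59 genes (72.9%, against 36% of all features) and the highest for 3. The spt3 strain had the highest mean for 34 (57.6%, against 25.6% of all features) and the lowest for 1, RLP7. Wild type was lowest for 10 and highest for 14, and the double mutant was lowest for 5 and highest for 8. The range from the lowest to the highest strain mean was 0.14 for NOC3 at the least and 1.79 for DBP2 at the most.

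**Figure D3:**
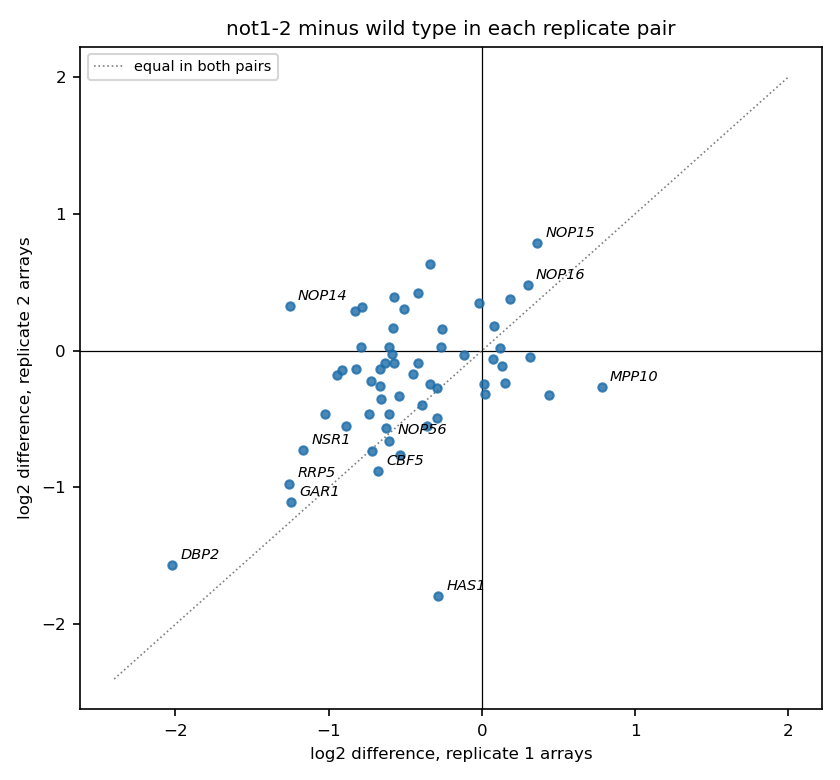
Log2 difference between not1-2 and wild type for each of the 59 genes in the replicate 1 arrays (x axis) and in the replicate 2 arrays (y axis), with the dotted line marking equal values. DBP2, GAR1, RRP5 and NSR1 are low in both pairs, whereas HAS1, at -0.29 and -1.79, NOP14, at -1.25 and 0.32, and MPP10, at 0.78 and -0.26, differ between them.

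In spt3, biogenesis genes were more often measured higher than wild type, and the size of the difference depended on the replicate pair. Of the 59, 18 were lower (30.5%, against 51.6% of all features). In both pairs 24 were higher (40.7%, against 27.8% of all features) and 9 lower (15.3%, against 32.6%). Their median was 0.17 (0.22 and 0.08 in the replicate pairs) beside -0.02 for all features. With the ACT1 ratio added to the block the members' median was 0.03, and without centring it was 0.28. By limma 0 members were called with the block (0.568% of all features) and 0 without it (0.0568%), and 5 and 0 had an unadjusted p under 0.05 (8.47% and 0%, against 18.3% and 5.51% of all features). Both spt3 arrays lay under both wild-type arrays for 5 members (15.9% of all features) and over them for 15 (16% of all features).

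NOP14, which acts with Emg1 and Noc4 in small subunit maturation, was the highest in spt3. Its signal was 7.65 and 26.7 in wild type, 3.21 and 33.4 in not1-2, 22.8 and 43.1 in spt3, and 22.1 and 32.4 in the double mutant. The replicate 1 arrays, from 3.21 to 22.8, all lay under the replicate 2 arrays, from 26.7 to 43.1, and the differences in spt3 were 1.58 and 0.69. IMP3 and MPP10 came next at 0.97 and 0.87, nearly all of it from the replicate 1 pair (1.99 and 1.63, against -0.06 and 0.11 in the replicate 2 pair). NOG2, a GTPase of large subunit export, read 248 and 352 in wild type against 533 and 481 in spt3. The spt3 arrays were both higher, by 0.77 on average, and a second NOG2 probe set gave 1.19 with overlapping arrays. PWP2, a UTP-B protein, read 40.7 and 23.4 in wild type against 80.8 and 34.0 in spt3, and DRS1, a large subunit helicase, 25.1 and 53.2 against 56.4 and 68.1. NOP2, a methyltransferase of the large subunit RNA, read 71.1 and 114 in wild type, 54.3 and 87.0 in not1-2, 141 and 137 in spt3, and 128 and 120.0 in the double mutant, and was the large subunit factor with the widest range of strain means. With the ACT1 ratio added to the block, the difference in spt3 went from 1.13 to 0.45 for NOP14 and to 0.046 for IMP3 and 0.11 for MPP10. It was 0.33 for NOG2, 0.27 in place of 0.76 for DRS1 and 0.19 in place of 0.62 for NOP2, while PWP2 went from 0.76 to 0.72. The lowest estimates in spt3 were CBF5, NHP2 and RLP7, at -0.75, -0.60 and -0.50.

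In the double mutant the biogenesis genes were spread to both sides of their wild-type levels. Of the 59, 26 were lower (44.1%, against 53.2% of all features) and 33 higher. Their median was 0.05 (0.12 and -0.03 in the replicate pairs) beside -0.05 for all features. That median was -0.06 with the ACT1 ratio added to the block and 0.22 without centring, so it has no settled direction. By limma 0 members were called with the block (0.199% of all features) and 0 without it (0.071%), and 1, NHP2, and 0 had an unadjusted p under 0.05 (1.69% and 0%, against 14.7% and 4.30% of all features). Arrays did not overlap for 3 lower members (12.5% of all features) and 9 higher ones (13.2%). The box H/ACA genes were the lowest, with NHP2 at -0.67, CBF5 at -0.56 and GAR1 at -0.48, and NOP14, IMP3 and MPP10 were the highest at 0.91, 0.70 and 0.67, or 0.37, -0.024 and 0.069 with the ACT1 ratio added to the block. DBP2, at -0.45 (95% confidence interval -1.13 to 0.22 with the block), was between its not1-2 and wild-type levels on the brighter probe set. On the second, more variable probe set the double mutant mean was above wild type, by 0.57 with overlapping arrays.

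The double mutant was then set against not1-2, which asks how the biogenesis genes of a not1-2 strain differ with and without a working SPT3. Of the 59, 53 were higher in the double mutant and 6 lower (10.2%, against 44.9% of all features). In both pairs 39 were higher (66.1%, against 39.3% of all features). The median was 0.38 (0.52 and 0.21 in the replicate pairs) beside 0.06 for all features. This comparison and that of not1-2 with wild type share the 2 not1-2 arrays, so a low value on those arrays enters both. By limma 0 members were called with the block, against 2.36% of all features, and 0 without it, against 0.0284%. Unadjusted p-values under 0.05 were found for 11 members with the block (18.6%, as for all features, 18.6%) and 4 without it (6.78%, against 7.61%). Both double-mutant arrays lay over both not1-2 arrays for 26 members (20.2% of all features) and under them for 2 (18%).

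DBP2 exceeded its not1-2 level in the double mutant by 1.34 (95% confidence interval 0.67 to 2.02, adjusted p = 0.0544 by limma with the block and 0.400 without it), with 369.7 and 303 against 108 and 162. It passed in the blocked fit with quantile normalization. HAS1 was higher by 1.36, nearly equally in the pairs (1.37 and 1.35), with an adjusted p of 0.121 by limma with the block. RRP12 was higher by 1.17, RRP5 by 1.04 and NSR1 by 1.02. For each of these 3 both pairs were higher and the arrays did not overlap, and the adjusted p with the block was between 0.0938 and 0.117 by limma. NOP14 had the highest estimate, 1.37, which came from the replicate 1 pair alone (2.79, against -0.05). NOP15 was lower by -0.86, with 92.3 and 73.6 against 108 and 207, and UTP22, a small subunit factor, and SSF1, a large subunit factor whose near-identical copy SSF2 may bind the same probes, followed at -0.17 each. GAR1 was higher by 0.69, while CBF5 and NHP2 differed by 0.22 and 0.07.

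Between the double mutant and spt3 the differences were small. Of the 59, 44 were lower in the double mutant (74.6%, against 56.9% of all features), 22 of them in both pairs (37.3%, against 19.3%). The median was -0.14 beside -0.04 for all features. By limma 0 members and 0% of all features were called with the block, and 0 members and 0% without it. No member had an unadjusted p under 0.05 in either fit, where 0.653% and 0.142% of all features did. Both double-mutant arrays lay under both spt3 arrays for 11 members (6.57% of all features) and over them for 2 (5.44%). NOP15 was the lowest at -0.78 (-0.65 and -0.92 in the replicate pairs), followed by UTP20, a small subunit factor, at -0.39 and NOC2, which works in early large subunit assembly, at -0.34. MAK16, a large subunit factor, was the highest at 0.33, followed by NSR1 at 0.30 and RLP7, an RNA-binding large subunit factor, at 0.27.

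**Figure D4:**
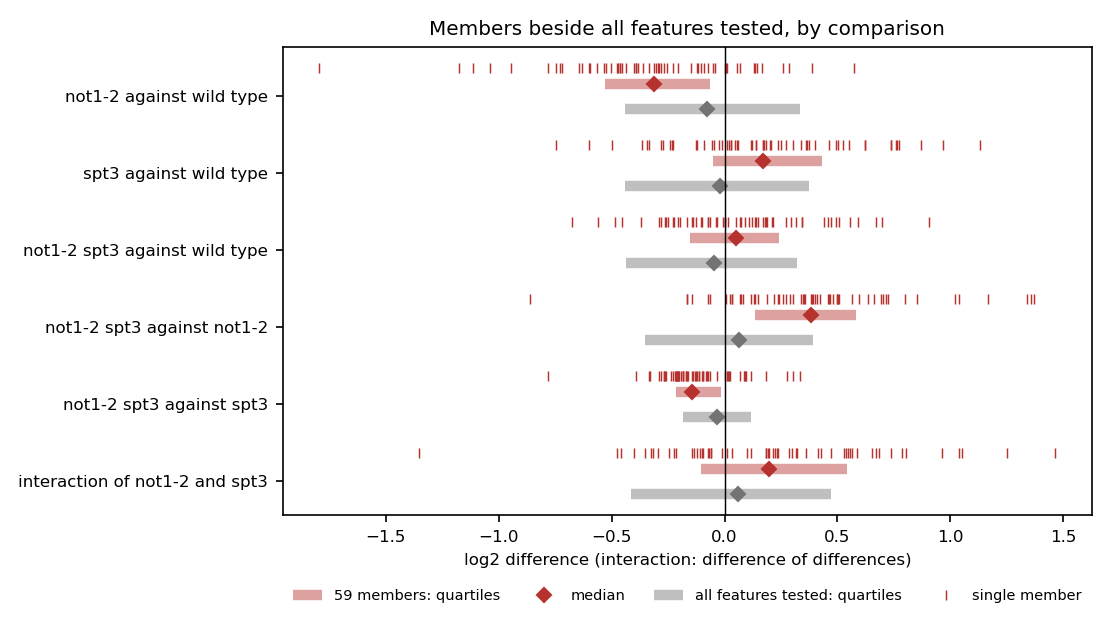
Log2 differences of the 59 genes in the 6 comparisons (ticks), with their median (diamond) and quartiles (bar) in red and those of all 7043 features in grey. The red median lies at -0.31 for not1-2 against wild type, at 0.38 for the double mutant against not1-2 and at 0.05 for the double mutant against wild type.

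The interaction term asks whether not1-2 differs from wild type by another amount than the double mutant differs from spt3. Positive values mean that the second of these differences was less negative, or more positive, than the first. Wild type, the only strain with high MFA2 signal, enters the term. An interaction of the mutations and a difference in mating-type expression therefore cannot be told apart in it. The median of the term over the 59 was 0.20 (0.36 and 0.18 in the replicate pairs) beside 0.06 for all features. In both pairs 28 were positive (47.5%, against 31.5% of all features) and 5 negative (8.47%, against 25.7%). By limma 0 members were called with the block (0.0852% of all features) and 0 without it (0%), and 6 and 1 had an unadjusted p under 0.05 (10.2% and 1.69%, against 10.1% and 3.49% of all features). DBP2 had the highest estimate, 1.47 (95% confidence interval 0.51 to 2.42, adjusted p = 0.293 by limma with the block). NSR1 followed at 1.25, RRP5 at 1.05 and GAR1 at 1.04. NOP15 was the lowest at -1.36, with -1.01 and -1.70 in the replicate pairs and an adjusted p of 0.443 by limma with the block. NUG1 was next at -0.48 and MPP10 at -0.46, the latter 0.041 with the ACT1 ratio added to the block. By role, the medians were 0.97 for box H/ACA and 0.65 for box C/D genes, -0.27 for the U3 and Mpp10 group and -0.35 for the GTPases. These are small groups, with 4 genes in the U3 and Mpp10 group and 3 in each of the others. The remaining medians were 0.10 for UTP-A, 0.03 for UTP-B and 0.15 for the other small subunit factors. They were 0.26 for the helicases and 0.22 for the large subunit factors. The U3 and Mpp10 median was -0.85 in the replicate 1 pair and 0.25 in the replicate 2 pair, and 0.25 with the ACT1 ratio added to the block. The GTPase median was -0.058 with that ratio.

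Other genes of the pathway were counted beside them. In not1-2 against wild type 55.6% of all features were lower. Of 49 other small subunit factors 29 were lower, with a median of -0.16, and of 44 other large subunit factors 30, with a median of -0.18. Of 15 genes for RNA polymerase I and its factors, which transcribe the ribosomal RNA, 12 were lower, with a median of -0.42. Of 12 regulators of the regulon, such as SFP1 and SCH9, 8 were lower, with a median of -0.07. Of 138 listed ribosomal protein genes of the cytosol, the genes best known to be turned down together with the biogenesis regulon, 81 were tested. Of these 76 were lower, with a median of -0.36 (-0.60 and -0.17 in the replicate pairs). The only call in these 5 lists, in any of the 6 comparisons, was RPS22A with the block in not1-2 against wild type. RPS22A, a small subunit protein whose near-identical copy RPS22B may bind the same probes, read 8374 and 4715 in wild type against 5659 and 3145 in not1-2. The replicate 1 arrays were the higher in both strains, and the difference was -0.57 (adjusted p = 0.0482 by limma with the block and 0.890 without it). In the double mutant against not1-2 the medians were 0.09, 0.28, 0.32, 0.23 and 0.17 for the small subunit, large subunit, polymerase I, regulator and ribosomal protein lists in that order, and in spt3 against wild type 0.12, 0.23, 0.27, 0.13 and -0.14.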

How the data were processed

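Acid phenol RNA of 8 samples (4 strains, 2 each) was labelled and hybridised to Affymetrix yeast arrays by that maker's standard procedure, per the labels' protocols. The authors deposited linear signal intensities for each probe set, whose trimmed mean is nearly equal on all arrays; the program used is not stated in these sources. Arrays were centred on their medians, which spanned 0.419 on the log2 scale. Intensities under the 10th percentile (1.72) were raised to it, and log2 was taken. Probe sets whose highest strain mean was under the 25th percentile (6.99) were left out, and a gene with several probe sets was represented by the brightest on average, leaving 7043 features.

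The model, fitted in R 4.3.3 with limma 3.58.1, had 4 strain means estimated from all 8 arrays and 6 contrasts. Variances were moderated along intensity, and p-values were adjusted by Benjamini-Hochberg. Replicate numbers come from the labels, which name no common day or batch. Deviations of equal-numbered arrays from their strain means were positively correlated in all 6 strain pairs. The r ran from 0.188, for spt3 with the double mutant, to 0.739, for wild type with not1-2. These numbers were therefore treated as pairs, and values with the replicate block stand beside those without it. The ACT1 ratio also differed by replicate number, so a true pairing and a shared RNA quality cannot be told apart. Whether replicates were separate cultures is not stated, and p-values then cover only the possibly technical spread of these samples. The fit was also run on simulated data with independent noise and a replicate shift common to all strains, as the block assumes. That run cannot show whether calls hold with replicates as unequal as these.

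The members and the other lists were chosen with earlier results of these data known. Named were the called members, the 3 highest and 3 lowest estimates per comparison, and, per role, the member with the highest mean signal and that with the widest range. NOP56, RRP12, NOG1 and DRS1, outside that rule, were chosen after their values were seen. Alternatives changed the scaling, floor, filter, trend, arrays in the fit, probe sets of a gene and the arrays left out. No sequences are shown.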

Additional observations from a re-analysis of the deposited data

How the results depend on the processing

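The fit without the replicate block called 0 of the 59 genes in all 6 comparisons. With the block, 2 were called in not1-2 against wild type (DBP2 and GAR1); 1, DBP2, was called there with the ACT1 ratio added to the block and 1, DBP2, with quantile normalization, where 1, DBP2, also passed in the double mutant against not1-2. The block changed no other call. Leaving out 1 array at a time from the blocked fit gave 0 to 2 calls in not1-2 against wild type: 0 without either wild-type array or either not1-2 array, and 1, DBP2, without either double-mutant array. It gave 0 to 1 in spt3 against wild type (IMP3, without spt3 replicate 2, where 8.92% of all features were called) and 0 to 1 in the double mutant against not1-2 (DBP2, without spt3 replicate 1 or 2, where 6.18% and 5.75% were).

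The members' median kept its sign under every alternative except in the double mutant against wild type, 0.05, which was -0.062 with the ACT1 ratio and 0.22 without centring. In spt3 against wild type it was 0.026 and 0.28 under these. In the double mutant against spt3 it was -0.10 with the ACT1 ratio, -0.091 with quantile normalization, with or without the block, -0.083 without centring and -0.16 with the mean over probe sets, and -0.21 to -0.018 with 1 array left out. The interaction median was 0.33 with the ACT1 ratio and 0.069 to 0.31 with 1 array left out, lowest without spt3 replicate 2. With the ACT1 ratio, uncalled estimates turned sign in the comparisons with wild type for 7 of the 59 genes (not1-2), 18 (spt3) and 21 (double mutant), for 4 and 5 in the double mutant against not1-2 and spt3, and for 9 in the interaction. Among them were IMP3 in the double mutant against wild type (-0.024), SSF1 against not1-2 (0.012) and MPP10 in the interaction (0.041). With the mean over probe sets UTP22 turned sign against not1-2 (0.31). With 1 array left out they ranged from -0.075 to 2.01 for IMP3 and -0.12 to 1.86 for MPP10 in spt3 against wild type, and from -0.34 to 1.74 and -0.32 to 1.66 in the double mutant. MPP10 ranged from -1.45 to 0.53 in the interaction. Against not1-2, the double mutant ranged from -0.88 to 0.55 for SSF1, -0.32 to 3.06 for NOP14 and -0.53 to 0.20 for UTP22, and against spt3 from -0.18 to 0.73 for RLP7 and -0.088 to 0.70 for NSR1. The causes were not tested. The number of arrays limits the precision of every difference.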
